A study of Drosophila melanogaster with 2 samples.

Results

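The odd-skipped family of Drosophila melanogaster is a set of 4 zinc-finger genes on chromosome arm 2L, drm (drumstick), sob (sister of odd and bowl), odd (odd skipped) and bowl (brother of odd with entrails limited). They were taken from a list of names, 4 of the 13968 protein-coding genes annotated on the major chromosomes. Their peaks were the entries of the dm6 lists whose summit lay in the gene body or within 10 kb on either side of it. The genes were selected on results of these same data, the peaks listed at them, so the numbers, ranks and signal values of their peaks are given as a description and were not tested.

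Chromatin immunoprecipitation with sequencing (ChIP-seq) had been carried out on whole embryos of strain 1T-GFP, of mixed sex and aged 0 to 24 hours, with a transgene for Bicoid carrying GFP at its C-terminus (bcd-eGFP). Precipitation used an antibody against GFP, although the antibody field of the labels reads bcd. The 2 libraries, numbered 1 and 3, were each made from a biosample of their own and formed 1 group with no second genotype, treatment or age. The promoter that drives the transgene is not given in the sources used here, and the control experiment that the labels name was not analysed here. Because whole embryos of a broad range of ages were used, strong binding in few cells and weak binding in many cannot be told apart.

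The peak entries came from 4 lists, namely a set thresholded by irreproducible discovery rate (IDR), with 6054 entries, and relaxed lists of peaks and background for the pooled replicates, for replicate 1 and for replicate 3, with 30000 entries each. Each entry has a signal value, a score whose scale the peak caller sets, and was ranked by it within its list, with rank 1 the strongest. Sequencing depth is unknown, as the lists hold no read counts. Signal values are not comparable between lists, and the replicates are compared by rank.

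Proteins of the family share zinc fingers of the C2H2 type. The gene odd is a pair-rule gene, whose product is a repressor expressed in stripes in the segmenting embryo, and sob is its close relative with a similar early pattern. In the gut and the epidermis, Drm binds the protein Lines, the product of lin, and so relieves Bowl of its inhibition by Lines. In the developing leg, genes of the family act downstream of Notch at the joints. Bicoid, the bait of the experiment, is the maternal homeodomain protein that patterns the anterior of the early embryo.

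Peaks were unevenly spread over the family. The windows of the 4 genes held 16 IDR summits, of which 9 belonged to bowl, 4 to sob, 2 to drm and 1 to odd. Only bowl had IDR summits at its own transcription start sites (TSSs) and in its gene body, whereas those of drm, sob and odd lay 4.60 kb or more from the TSS of the gene. The shares of all protein-coding genes with an IDR summit at a TSS of their own or in the gene body were not counted. Whether bowl or the other 3 genes are the usual case is therefore not known. At all 16 summits the entry of replicate 3 ranked higher than that of replicate 1. Having at least 1 IDR summit in such a window was common, at 68.3% of all protein-coding genes. At least 4 summits, as at sob, were found for 13.7% of genes and at least 9, as at bowl, for 0.644%. The windows were 32.4 kb long for bowl, 29.2 kb for drm, 22.8 kb for sob and 22.5 kb for odd. Whether window length bears on these numbers was not tested.

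**Figure D1:**
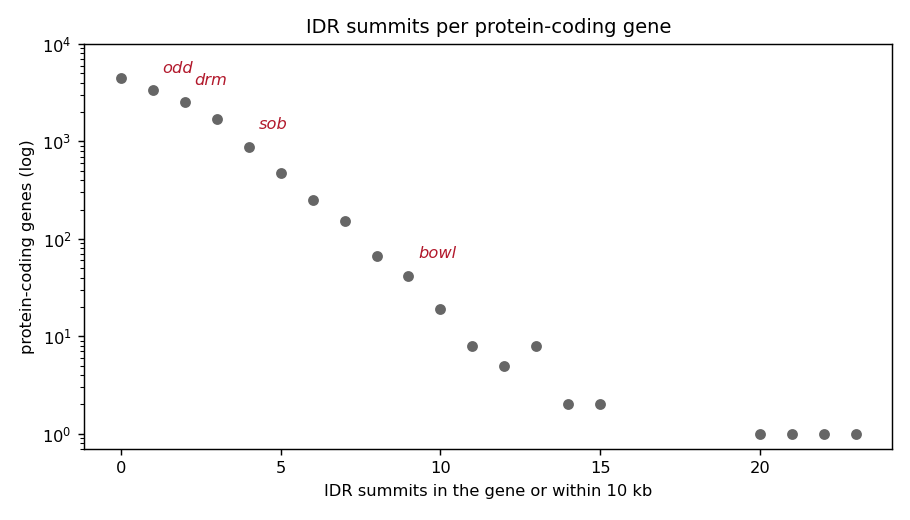
Number of protein-coding genes (log axis) with each number of IDR summits in the gene or within 10 kb on either side, each point 1 number of summits. The 4 family genes are marked, odd at 1 summit, drm at 2, sob at 4 and bowl at 9, where 42 genes lie.

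The genes drm, sob and odd stood close together, within 67.5 kb, whereas bowl was apart from them. Only 1 protein-coding gene, CG43815, lay in the 29.6 kb between drm and sob, and none lay in the 23.5 kb between sob and odd. Between odd and bowl were 165 kb with 32 protein-coding genes, so that only the first 3 form a cluster in the strict sense. The windows of the 4 genes covered 107 kb, did not overlap each other, and held 150 IDR summits per Mb, against 47.3 per Mb on the whole of 2L. The window of bowl alone held 278 per Mb, and those of the other 3 genes together held 94.0. These 3 were unlike, since per 10 kb sob had 1.76, drm 0.685 and odd 0.444, against 0.473 on 2L. The value of 2L is over the whole arm, not over windows around genes.

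The gene odd (2L:3604224-3606756, minus strand) had 1 IDR summit, the smallest number in the family at this window and threshold. Within 20 kb odd had 4 and drm 3, among the 3027 strongest IDR entries odd had 1 and drm 0, and in replicate 3 alone both had 2 among the 6054 strongest entries, so the order of odd and drm is not fixed. The summit, at 2L:3598680, was in intergenic sequence on the 3' side, 8.08 kb from the TSS and 5.54 kb beyond the end of the gene, and no other TSS was nearer. Its signal was 234 and its rank 2841 in the IDR set, 9049 in replicate 1 (signal 42.9) and 1765 in replicate 3 (signal 185). The site thus stood much higher in the list of replicate 3. The sequence within 100 bp of the summit is shown because it is the only IDR site of the pair-rule member, and none of the 7 words searched, given further on, occurs there.
odd, 2L:3598580-3598780, plus strand: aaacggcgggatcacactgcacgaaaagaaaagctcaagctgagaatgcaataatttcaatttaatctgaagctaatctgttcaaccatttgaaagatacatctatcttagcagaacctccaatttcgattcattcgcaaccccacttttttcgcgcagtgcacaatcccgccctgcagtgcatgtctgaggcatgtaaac

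At the promoter of odd, only weak entries were listed. The best within 500 bp of the TSS ranked 20754 in the pooled relaxed list (signal 38.4) and 15330 in replicate 3 (signal 30.4), and replicate 1 had none. Just beyond that limit, 544 and 540 bp upstream of the TSS, were entries with rank 14075 in the pooled list and 11524 in replicate 3. No IDR or pooled entry had its summit in the gene body. Just under the IDR threshold was a pooled entry at 2L:3601043, on the same 3' side, with a signal of 120 and rank 6302. Just outside the window, by 42 bp, was an IDR summit at 2L:3594182 with a signal of 139 and rank 5371, which was not counted for odd or for sob. The replicate 1 entry at that place had its summit at 2L:3594237, inside the window, and is 1 of the 6 entries of odd in that list.

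The gene sob (2L:3578013-3580769, minus strand) had 4 IDR summits, in a pair on each side of the gene. The pair on the 3' side, at 2L:3573543 and 2L:3574147, was in intergenic sequence 4.47 and 3.87 kb beyond the end of the gene, with the summits 604 bp apart. The other pair, at 2L:3587540 and 2L:3588494, was 6.77 and 7.73 kb upstream of the TSS and 954 bp apart. Of the latter, the first was 71 bp from the TSS of the noncoding RNA gene lncRNA:TS2 and the second was in an exon of lncRNA:CR43823. The nearest to the TSS of sob itself was 6.62 kb away.

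The strongest of them, at 2L:3574147, had a signal of 321 and rank 1832 in the IDR set, and ranked 5193 in replicate 1 (signal 70.0) and 1081 in replicate 3 (signal 255). Its neighbour at 2L:3573543 had a signal of 254, rank 2565, with 3796 in replicate 1 (90.2) and 1871 in replicate 3 (178). Within this pair the order was opposite in the 2 libraries, since replicate 1 placed 2L:3573543 first and replicate 3 placed 2L:3574147 first. The entry in lncRNA:CR43823 had a signal of 296 and rank 2084, with 6544 in replicate 1 (57.8) and 1239 in replicate 3 (234). The entry at lncRNA:TS2 was the weakest of the 4, with a signal of 152 and rank 4846, 10979 in replicate 1 (35.9) and 3742 in replicate 3 (106). Both upstream sites fell below the 6054 strongest entries of replicate 1, and both were well within those of replicate 3.

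The strongest site of sob is shown because it held the 1 match to GTGGGAA, the word of Su(H), the DNA-binding factor of the Notch pathway, among the 16 summit windows. Capitals mark the match, 75 bp from the summit.
sob, 2L:3574047-3574247, plus strand: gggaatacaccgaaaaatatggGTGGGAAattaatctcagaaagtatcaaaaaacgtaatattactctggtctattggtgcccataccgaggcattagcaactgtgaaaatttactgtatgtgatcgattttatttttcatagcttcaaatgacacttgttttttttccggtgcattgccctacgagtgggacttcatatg
The promoter of sob had entries in each relaxed list, the best within 500 bp of the TSS with rank 10144 in the pooled list (signal 74.8), 7973 in replicate 1 (48.6) and 15864 in replicate 3 (29.7). Here the better rank was in replicate 1, unlike at the 16 IDR summits, although the summits of these best entries were 222 bp from the TSS in replicate 1 and on its other side in replicate 3.

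The gene drm (2L:3539247-3548423, plus strand) had 2 IDR summits, both weak and both upstream in intergenic sequence. They were at 2L:3534650, 4.60 kb from the 5'-most TSS, and 2L:3533333, 5.91 kb from it, 1317 bp apart and on the side of the next protein-coding gene, IFT57. The first had a signal of 128 and rank 5872 in the IDR set, with 12184 in replicate 1 (signal 32.8) and 4374 in replicate 3 (signal 92.5). The second had a signal of 134 and rank 5580, with 7934 in replicate 1 (48.8) and 4413 in replicate 3 (91.8). These were the lowest ranks of the 16 summits, near the end of the IDR set.

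In the relaxed lists drm had many weak entries. The pooled list held 18, a number reached by 3.74% of protein-coding genes, and at least 1 pooled entry was found for 92.8%. After the 2 IDR entries the best of them had rank 8044. In the gene body the list of replicate 3 held 5 entries and that of replicate 1 held 0. On the 3' side the numbers were 10 and 1, whereas upstream they were 4 and 7. The excess of entries in replicate 3 at drm was thus in and beyond the gene, not upstream of it. At the 2 annotated TSSs of drm, the only entry within 500 bp was a pooled one with rank 21656 (signal 37.1). Just beyond that limit, 542 to 567 bp upstream of the first TSS, each relaxed list had an entry. Its rank was 12113 in the pooled list, 13577 in replicate 1 and 11773 in replicate 3.

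The gene bowl (2L:3771700-3784121, plus strand) had the strongest and most numerous sites of the family. The strongest was just upstream of its first TSS, by 219 bp, at 2L:3771284-3771652, with a signal of 665 and rank 539. Replicate 3 had 1 entry there, with a signal of 394 and rank 496. Replicate 1 had 2 overlapping it, the nearer with a signal of 269 and rank 680 and the other with a signal of 184 and rank 1308. This was the site at which the 2 libraries stood closest in rank. It is shown as the 1 strong promoter site of the family, again with no match to any of the 7 words.
bowl promoter, 2L:3771381-3771581, plus strand: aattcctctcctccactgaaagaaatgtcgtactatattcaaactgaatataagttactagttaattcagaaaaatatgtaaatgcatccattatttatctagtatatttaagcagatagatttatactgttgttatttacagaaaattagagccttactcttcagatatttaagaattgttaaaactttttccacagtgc

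Of the 9 summits, 6 lay in the bowl gene body. All 6 were upstream of the first coding base of the gene, at distances from 0.448 to 6.38 kb, in the part of the gene that holds the noncoding first exons and their introns. The strongest of these, in an intron at 2L:3776847, had a signal of 422 and rank 1191, with 2382 in replicate 1 (signal 126) and 826 in replicate 3 (signal 301). The next, at 2L:3773344, had a signal of 312 and rank 1928, with 2963 in replicate 1 (108) and 1575 in replicate 3 (200). The other 4 were weak, with IDR ranks from 4540 to 5142 and signals from 145 to 161.

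In replicate 1 the 4 weaker sites ranked between 7498 and 11786 (signals 33.7 to 51.5), and in replicate 3 between 2900 and 4574 (signals 89.2 to 131). None of them was therefore among the 6054 strongest entries of replicate 1, and all were among those of replicate 3. One, at 2L:3773548, was 204 bp from the summit at 2L:3773344 and overlapped its interval, so these 2 entries may not be separate sites. The last, at 2L:3779278, was 340 bp from an internal TSS of bowl, in the first exon of the shortest transcript. The strongest intronic site is shown with its match to TAATTA, a word bound by homeodomains like that of Antennapedia, in capitals, 80 bp from the summit.
bowl intron, 2L:3776747-3776947, plus strand: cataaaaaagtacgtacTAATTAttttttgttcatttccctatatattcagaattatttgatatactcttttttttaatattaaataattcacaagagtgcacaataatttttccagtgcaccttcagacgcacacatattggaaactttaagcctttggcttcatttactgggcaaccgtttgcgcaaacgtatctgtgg

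Downstream of bowl were 2 further IDR summits, both nearer to the TSS of another gene. The one at 2L:3786438 was 2.32 kb beyond the end of bowl, intergenic, and 700 bp from the start of the pseudogene CR31958. It had a signal of 266 and rank 2396, with 3565 in replicate 1 (94.4) and 2081 in replicate 3 (167). The one at 2L:3789538 was 5.42 kb beyond bowl, in the first intron of bark, 448 bp from an internal TSS of that gene. It had a signal of 314 and rank 1903, with 7153 in replicate 1 (53.6) and 1093 in replicate 3 (253). With 6 summits in the gene body and 1 at its promoter, bowl kept the largest number in the family when these 2 were left aside.

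**Figure D2:**
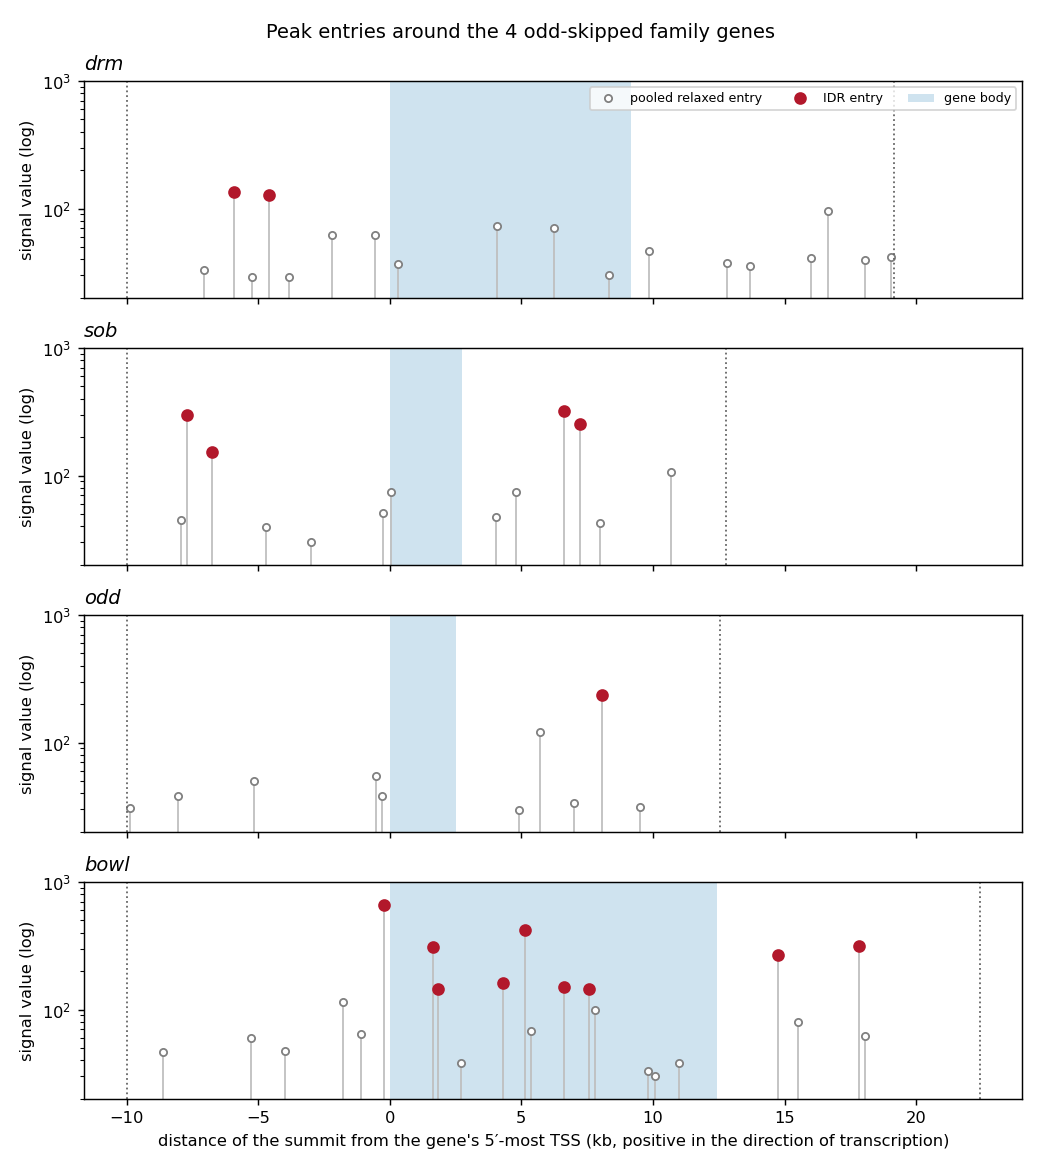
Signal value (log axis) of each pooled relaxed entry (open) and IDR entry (filled) against the distance of its summit from the 5'-most TSS of the gene in kb, with the gene body shaded and the 10 kb limits dotted. The IDR entries of bowl run from just before the TSS (signal 665) through the gene body, whereas those of drm, sob and odd lie away from gene and promoter.

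By sequence class, 4 of the 16 summits (25.0%) were at promoters, within 500 bp of an annotated TSS, where the whole IDR set had 47.0%. The 4 were those near the TSSs of bowl (first and internal), lncRNA:TS2 and bark. Introns held 5 (31.3%), all of bowl, against 36.7% in the whole set. Intergenic sequence held 6 (37.5%), namely 2 of drm, 2 of sob, 1 of odd and 1 of bowl, against 13.7%, and exons held 1 (6.25%) against 2.54%. In the pooled relaxed list, the 63 entries of the family were at promoters in 23.8% and intergenic in 46.0% of cases, against 26.6% and 23.6% of all entries. Genes with wide intergenic flanks offer more such sequence, which was not corrected for.

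At the IDR summits the entries of replicate 3 stood higher in their list. All 16 IDR summits had an entry in both replicates, and the median rank was 7326 in replicate 1 and 1976 in replicate 3. Among all IDR entries with an entry in both lists, 48.9% ranked higher in replicate 3, and among those away from promoters 61.8% did. The replicate 1 entries of 6 of the 16 summits were among its 6054 strongest, where 80.4% of all IDR entries were. The replicate 3 entries of all 16 were among its strongest, where 84.9% of all IDR entries were. The IDR entries are the 6054 strongest of the pooled list, so a site weak in replicate 1 could enter mainly through replicate 3. The replicate ranks of the 16 summits are thus not independent of how the summits were selected. Outside the IDR set some entries in the same windows stood higher in replicate 1. At the first TSS of bark, in the window of bowl, the entry of replicate 1 at 2L:3787227 had rank 6012 (signal 61.8), and the nearest of replicate 3, at 2L:3787521, had rank 26312 (signal 21.0). At 2L:3766428, upstream of bowl and 119 bp from the TSS of CG43707, replicate 1 had an entry with rank 8381 (signal 46.2) and replicate 3 had none. These entries, like that at the sob promoter, were at annotated TSSs. Others were not, as at 2L:3611964, in intergenic sequence 5.21 kb upstream of odd. There replicate 1 had an entry with rank 8960 (signal 43.4), which no entry of replicate 3 overlapped. Near the TSS of CG43815 replicate 3 stood higher, with rank 7612 against 22507 in replicate 1. All of these entries were picked after their values were seen. The 16 summits are not independent of each other, and the difference is one between 2 libraries.

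**Figure D3:**
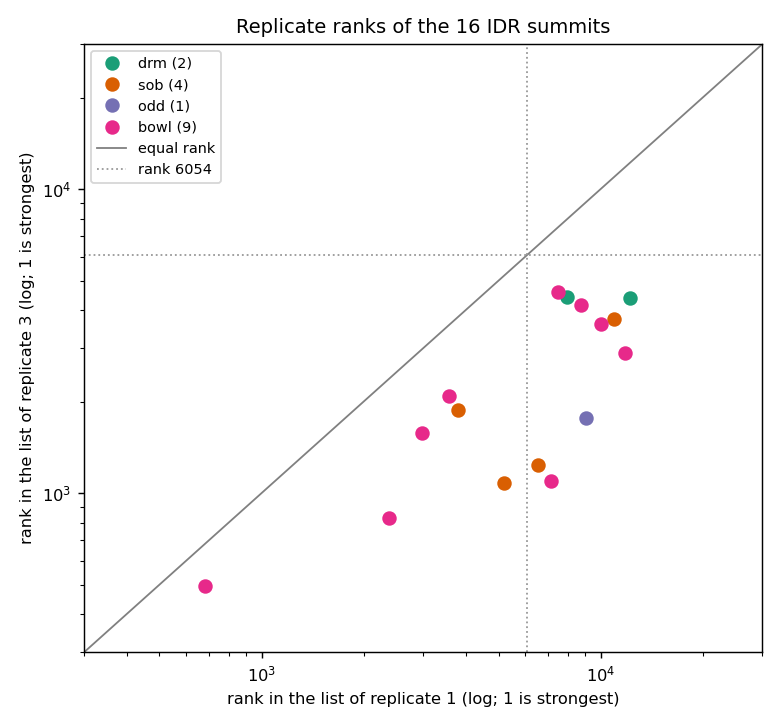
Rank of each of the 16 IDR summits in the list of replicate 1 (x, log axis) and of replicate 3 (y, log axis), coloured by gene, with the line of equal rank and dotted lines at rank 6054. All 16 points lie below the line, nearest to it the bowl promoter (680 and 496), and all are among the 6054 strongest entries of replicate 3.

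Taking the 6054 strongest entries of each replicate by itself gave 8 entries for the family in replicate 1 and 18 in replicate 3. Replicate 1 had 0 at drm, 2 at sob, 0 at odd and 6 at bowl, and replicate 3 had 2, 4, 2 and 10. The sites at odd and drm were thus in the strongest part of the list in replicate 3 and not in replicate 1. In the full relaxed lists, each gene also had more entries in replicate 3 than in replicate 1, with 19 and 8 for drm, 13 and 9 for sob, 12 and 6 for odd and 21 and 20 for bowl. Among all protein-coding genes 33.2% had more entries in replicate 3. None of the 4 genes had entries in replicate 3 alone, as 3.21% of all genes did, and at least 1 entry was found for 94.1% of genes in replicate 1 and 93.5% in replicate 3. The numbers for bowl were nearly equal, and those for drm and odd differed most.

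**Figure D4:**
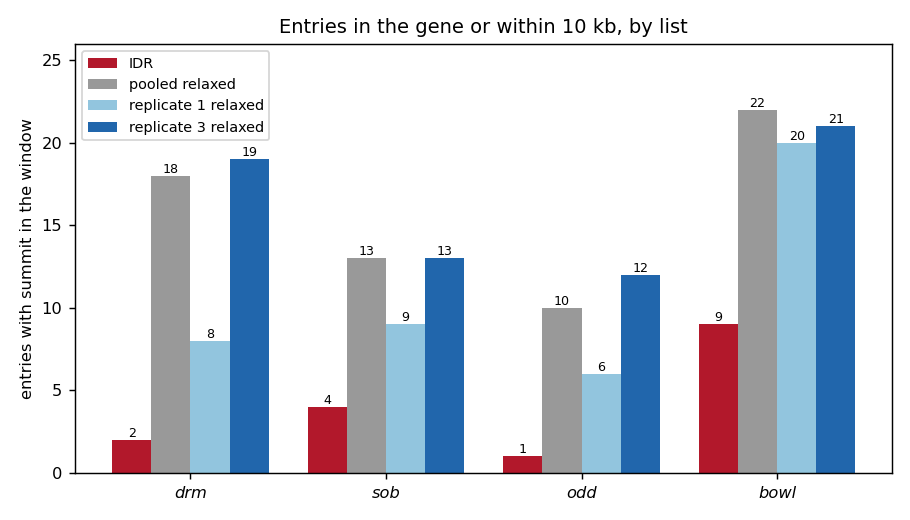
Number of entries with summit in the gene or within 10 kb (y) for each gene in the IDR, pooled relaxed, replicate 1 relaxed and replicate 3 relaxed lists. The bars of bowl are 20 and 21 for the 2 replicates, those of drm 8 and 19.

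The relaxed entries that replicate 1 did have were mostly found again in replicate 3. Of its 43 entries in the windows, 35 (81.4%) were overlapped by an entry of replicate 3, where 57.5% of all its entries were. Replicate 3 had 6.08 entries per 10 kb in these windows, against 2.43 on 2L. A denser list gives more overlaps by itself, which was not corrected for. In the other direction 32 of the 65 entries of replicate 3 (49.2%) were overlapped by one of replicate 1, against 55.3% of all. Of the 63 pooled entries 40 (63.5%) were overlapped by an entry of replicate 1 and 53 (84.1%) by one of replicate 3, against 73.9% and 78.6% of all pooled entries. By gene, the replicate 3 entries overlapped in replicate 1 were 6 of 19 at drm, 8 of 13 at sob, 3 of 12 at odd and 15 of 21 at bowl. The summits of the matched IDR entries lay a median of 12.5 bp (replicate 1) and 21.0 bp (replicate 3) from the IDR summit, with a highest distance of 94 and 103 bp.

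The recognition word of Bicoid was at few of the sites, though not at a smaller share of them than over all IDR summits. TAATCC, searched on both strands like all words here, occurred within 100 bp of 2 of the 16 summits, against 6.74% of all IDR summits. Both were in the bowl window, 54 and 45 bp from the summits at 2L:3779278 and 2L:3789538. They are shown for this word, in capitals, the first cut to 26 bp because it is in an exon, and the second on the minus strand, where the plus strand reads GGATTA.
bowl internal TSS, 2L:3779211-3779236, plus strand: gctaatgtgaTAATCCttggctattt
bark intron, 2L:3789438-3789638, plus strand: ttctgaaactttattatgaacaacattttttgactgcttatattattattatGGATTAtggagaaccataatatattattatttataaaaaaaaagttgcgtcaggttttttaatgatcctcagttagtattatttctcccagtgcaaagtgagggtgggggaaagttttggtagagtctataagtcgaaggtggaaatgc
TAATTA occurred in 2 windows, against 17.4% of all, 1 of them the bowl intron shown above and the other in lncRNA:CR43823 upstream of sob. GTGGGAA occurred in 1, against 2.10%. No match was found for 4 words, CAGGTA of Zelda (3.98% of all IDR summits), GAGAGAG of GAGA factor (3.15%), TATCGATA of DREF (3.63%) and ACAGTAGC of the Odd-skipped zinc fingers themselves (0.413%). No word lies within another. With 16 windows and words this rare, such counts do not separate the family from the whole set. The windows had a median of 67.7% A and T (range 53.7% to 72.6%), against 65.2% over all IDR summits.

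None of the other genes of the family's pathways had as many IDR summits as bowl, in numbers not corrected for window length. Closest were gro and ptc, with 8 each. The 9 of bowl include 2 nearer to the TSS of another gene and 2 with overlapping intervals. The summits of gro and ptc were not sorted in this way, so the order of the 3 genes is not fixed. Of 21 genes that were listed by role (lin, the Notch pathway, gro, the segment polarity genes hh, wg, ci, ptc and en, the leg gene dac and the other pair-rule genes), 13 had an IDR summit in the same window, close to the 68.3% of all genes, with a median of 1 and a highest number of 8. The antagonist lin had 2, the stronger with a signal of 312 and rank 1925. The highest signal was at gro, the gene of the co-repressor Groucho, at 952 (rank 264), followed by the peak between slp1 and slp2 with 921 (rank 276), which counts for both, and that of the receptor gene N with 691 (rank 500). The 8 without an IDR summit were Ser, Delta, hh, en, eve, ftz, prd and run. Of the 8 other pair-rule genes 4 had one, slp1, slp2, hry and opa, none with more than 2 summits.

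By number of IDR summits, bowl took place 7 among the 2657 protein-coding genes of 2L, sob place 222, drm 705 and odd 1163, with tied genes given the same place. The genes with the most were ush with 20, RapGAP1 and mtgo with 13 each, aop with 11, and Wdr81 and cbt, which tie for place 5, with 10 each. Their windows were 84.3, 101.2, 138, 42.3, 26.7 and 23.2 kb long in this order, so that those of Wdr81 and cbt were shorter than that of bowl and the others longer.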

How the data were processed

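Peak lists in narrowPeak format on dm6 were made by the authors, per the deposited file descriptions: a relaxed list for each replicate, one for both pooled, and the IDR set derived from these 3. Each deposited entry has a signal value, a score not normalised between lists, and a -log10 q value, which the authors' IDR set has tied at its highest value of 4.03 for most entries and which was not used to rank. The sources used here do not give the peak caller, the aligner or a version of either. The IDR entries are the 6054 strongest of the pooled list.

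Coordinates are dm6, counted from 1. Gene models were Ensembl BDGP6.54 (release 115), in which Dl is named Delta, and sequences are from the RefSeq Release 6 genome, in which all 4 genes have the same coordinates. Entries listed in dm3 were not used. A replicate entry was matched to an IDR entry by 1 bp of overlap and the nearest summit. Transposable elements were left out of the TSSs. Python 3.11.15, pandas 2.3.3 and numpy 2.4.6 were used, and the counting steps were tested on simulated peaks. No significance test was run. The genes named were the 4 members, genes at or nearest to their summits, the pathway list with its 3 highest signals and lin, and the 5 genes of 2L with most summits, with the gene tied for the fifth place. The members and lists were chosen with earlier results of these data known.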

Additional observations from a re-analysis of the deposited data

How the results depend on the processing

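The family's 16 IDR summits became 6 in the gene bodies alone, 8 in gene body and 5 kb upstream, and 9 among the 3027 strongest IDR entries, where bowl had 5. The lists of 1 library gave 8 without replicate 3 and 18 without replicate 1, and windows of 5 and 20 kb gave 11 and 20. The order of drm and odd, 2 and 1, became 3 and 4 within 20 kb, 0 and 1 among the 3027 strongest, 2 and 2 without replicate 1 and 0 and 0 without replicate 3, whereas bowl had the most of the 4 genes in each of these settings. By class, leaving out a replicate gave 3 to 4 promoter summits, 0 to 1 in exons, 2 to 5 in introns and 3 to 8 intergenic. With promoters of 250 bp, 2 summits were at promoters and 2 in exons. Among the 15000 strongest entries of each relaxed list, drm, sob and odd had 7, 7 and 3 pooled entries and 9, 8 and 4 in replicate 3, and drm had 3 in replicate 1. Within 5 kb the numbers were 11, 8 and 5 pooled and 4, 4 and 1 in replicate 1, and drm and odd had 12 and 7 in replicate 3. Within 200 bp of the summit, GAGAGAG and GTGGGAA were at 2 summits each. Within 50 bp, TAATCC and TAATTA were at 1 each and GTGGGAA at 0. Of the 16 summits, 15 still ranked higher in replicate 3 when summits had to lie within 100 bp, 1 having no match. Over the family total, classes, relaxed entries, replicate ranks and words, 41 values moved by no more than 1.5 times and 29 by more. Some of the 41 are given above. Smaller windows and lists hold fewer entries by construction. No paired analysis was possible because there is 1 group. Without read counts, depth limits the replicate comparison to ranks.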

Other observations

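The pathway genes also differed between the libraries. Of the 21, 17 had more relaxed entries in replicate 3 than in replicate 1 and 4 had fewer, where 33.2% of all protein-coding genes had more. Delta, named here after its values were seen, had 0 entries in replicate 1 and 21 in replicate 3, a pattern of entries in replicate 3 and none in replicate 1 that 3.21% of protein-coding genes shared. Among the pair-rule genes slp1 and slp2 had 1 entry each in replicate 1, and 9 and 12 in replicate 3, whereas hry had 25 in replicate 1 and 15 in replicate 3. The pooled list had 0 entries at eve.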
